A study of Mus musculus with 6 samples.

Results

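The 9 genes described here encode enzymes that turn squalene into cholesterol: Sqle, Lss, Cyp51, Msmo1, Nsdhl, Hsd17b7, Ebp, Sc5d and Dhcr7. They were chosen by name, with earlier results of these data known. All 9 names were found once each among the 30889 genes of the deposited table. The data are messenger RNA profiles of mouse liver, captured on oligo(dT) beads, from 6 libraries. Of these, 3 are from mice given a water extract of Emilia sonchifolia, a herb of the daisy family, and 3 are from control mice given phosphate buffered saline, both by mouth with 14 days in the sample titles. The labels give no strain, sex, age or dose. Nothing in the labels ties a library to an animal of its own, so the p-values below measure the spread between libraries, which may be technical.

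Cholesterol synthesis runs from acetyl-CoA through mevalonate to squalene, a linear hydrocarbon, and from there through a series of sterols made in the membrane of the endoplasmic reticulum. Squalene is first oxidised and folded into lanosterol, the first sterol, which then loses 3 methyl groups and has its double bonds moved or reduced. The liver is a main site of this pathway, and its genes are known targets of SREBP2, a transcription factor that is released from the endoplasmic reticulum when sterols are low.

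All 9 genes rose with the extract, where 14.2% of the 18071 genes tested were called higher (edgeR quasi-likelihood test, two-sided, Benjamini-Hochberg adjusted p below 0.05 over all genes). Their log2 fold changes ran from 0.19 to 1.88 with a median of 1.52, and the median of all genes tested was -0.02. For 8 of the genes the level was 2.17 to 3.68 times that of control, and the exception was Ebp, at 1.14 times. Each of the 9 was higher in every extract library than in any control library, which held for 17.7% of the genes tested. Of all calls 52.6% were higher, against 40.3% with limma on log2(FPKM + 0.5) and 58.0% with the same after TMM scaling. Limma on log2(FPKM + 0.5) called 8 of the 9 genes higher, with 13.6% of all genes called higher, and after TMM scaling it called 9 of 9, with 19.6% of all genes. Summed over the 9 genes, the level was 282, 283 and 289 FPKM (fragment counts divided by transcript length and library size) in the extract libraries, against 147, 141 and 115 FPKM in the control libraries. The mean of this sum was 285 ± 3.80 FPKM with the extract and 134 ± 17.1 FPKM in control (SD, n = 3 each). In bulk tissue a change in the number of cells of a type and a change in RNA per cell cannot be told apart.

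**Figure D1:**
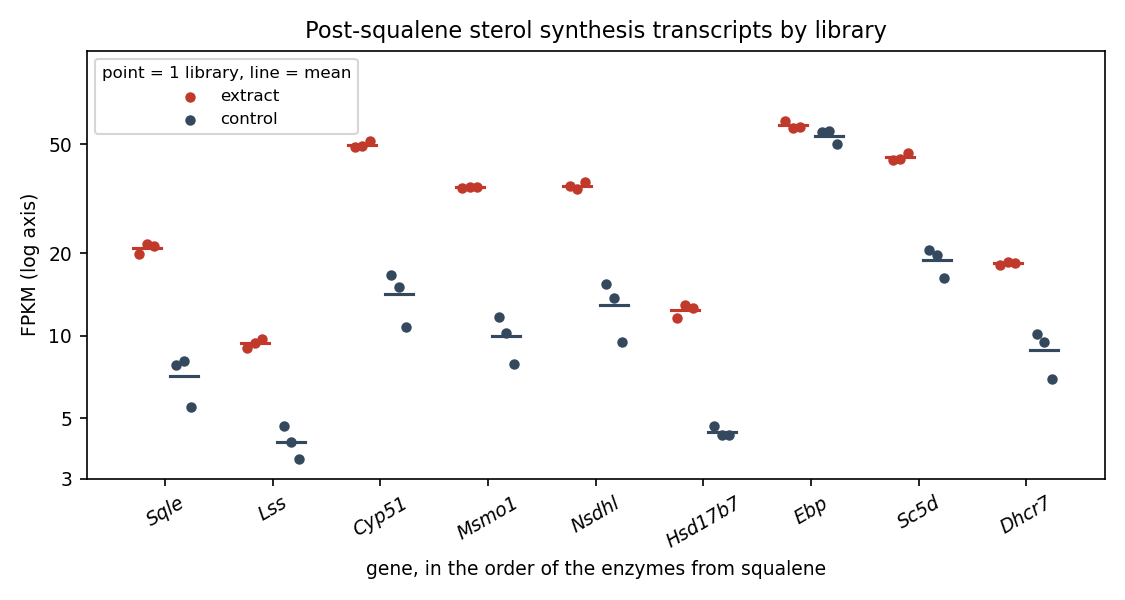
FPKM of the 9 genes (log axis) in the 3 extract libraries (red, left of each pair) and the 3 control libraries (dark, right), 1 point per library, with a line at each group mean. Every extract point lies above the control points of its gene, and the smallest separation is that of Ebp, at 57.5 to 60.9 FPKM with the extract and 50.2 to 56.0 FPKM in control.

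The libraries held 51219533 to 61432016 estimated counts, and the 9 genes had between 1409 and 15322 of them in each library. Markers of other cells moved with the treatment. Of 7 red cell markers 7 fell, where 12.8% of the genes tested were called lower, and their summed level was 198 to 236 FPKM with the extract and 1272 to 1617 FPKM in control. Of 7 neutrophil markers 5 fell (9.38 to 12.9 FPKM with the extract, 51.6 to 107 FPKM in control), with Camp at 0.0650 to 0.464 FPKM in the extract libraries. All 8 Kupffer cell markers fell (232 to 242 FPKM with the extract, 385 to 405 FPKM in control), as did 6 of 7 endothelial markers (33.6 to 36.1 FPKM with the extract, 46.3 to 51.0 FPKM in control). Hepatocyte markers, which check the labelled tissue, summed to 46847 to 47679 FPKM with the extract and 49598 to 58745 FPKM in control, with 1 of 8 higher and 4 lower. Markers of pancreas and skeletal muscle, none of 8 called, summed to 182 to 230 FPKM with the extract and to 156, 120 and 36.8 FPKM in controls 1, 2 and 3. The 4 pancreas genes were present in all 3 extract libraries and in control 3 but at or near 0 in controls 1 and 2. Ctrb1, the most abundant of them, was at 20.6, 22.7 and 24.3 FPKM with the extract and at 0, 0.245 and 21.6 FPKM in controls 1, 2 and 3. The 4 muscle genes were at 15.3 FPKM or more in every library but control 3, where they were at most at 0.216 FPKM. The part of these cells in the results below was not tested. Xist was at 34.5 to 40.0 FPKM in all 6 libraries and 4 Y-linked genes were at most at 0.284 FPKM. These values bear on the X-linked members Nsdhl and Ebp. Xist was called higher with the extract (log2 fold change 0.18, edgeR adjusted p = 0.0164), a change close in size to that of Ebp (0.19). Of the 4 Y-linked genes, 2 were called lower at these low levels. A link of these differences to Ebp was not tested.

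Upstream sequence was looked at because the 9 genes moved together, with Ebp far less than the rest. RefSeq promoter windows on GRCm38.p6, from 250 bases before to 50 bases after the start, were matched by symbol for 8 of the genes, in 10 windows, since Dhcr7 has 3. The stretches shown are those of Cyp51, which had the largest rise, Ebp, which had the smallest, and Sc5d, whose profile lay nearest to the mean of the 9. Each ends before the first base of any annotated exon, and capitals mark the CCAAT box bound by NF-Y and the GGGCGG box bound by Sp1, on either strand.
Cyp51, chr5:4104747-4104947, minus strand: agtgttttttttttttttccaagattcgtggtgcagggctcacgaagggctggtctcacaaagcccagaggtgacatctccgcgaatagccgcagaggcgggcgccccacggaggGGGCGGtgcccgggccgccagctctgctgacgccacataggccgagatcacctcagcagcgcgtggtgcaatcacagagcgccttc
Ebp, chrX:8193513-8193762, minus strand: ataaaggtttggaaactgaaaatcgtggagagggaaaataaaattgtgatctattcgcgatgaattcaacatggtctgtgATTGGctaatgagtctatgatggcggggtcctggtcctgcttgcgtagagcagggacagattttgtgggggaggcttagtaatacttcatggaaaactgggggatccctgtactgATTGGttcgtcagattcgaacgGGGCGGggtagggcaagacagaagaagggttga
Sc5d, chr9:42264301-42264550, minus strand: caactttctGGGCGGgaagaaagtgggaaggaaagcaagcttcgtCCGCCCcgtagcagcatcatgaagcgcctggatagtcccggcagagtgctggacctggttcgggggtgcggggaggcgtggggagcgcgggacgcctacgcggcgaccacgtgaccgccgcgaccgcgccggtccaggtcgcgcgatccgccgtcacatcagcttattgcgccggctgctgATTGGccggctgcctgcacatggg
Ebp has 2 CCAAT boxes and 1 GGGCGG box in this stretch, Sc5d has 1 and 2, and Cyp51 has 1 GGGCGG box, with a CCAAT box nearer to its start. Over the full windows, every one of the 8 genes had a CCAAT box, in 8 of 10 windows, and 37.4% of 32851 windows of all genes had one. GGGCGG was present for 8 of the 8 genes, in 9 of 10 windows, and in 35.7% of all windows. The windows of the 8 genes were 45.3% to 71.0% G and C, against a median of 52.7% over all windows, and GGGCGG is itself made of these letters. The core CACNCCA of a sterol regulatory element, the sequence bound by SREBP, was found in 1 of the 8 genes and in 18.4% of all windows. That gene was Msmo1, whose first annotated exon starts after the first 36 bases of the window. Unlike the stretches above, the site lies past that point, within the annotated span of the gene. It is shown with the core in capitals:
Msmo1, chr8:64733737-64733765, minus strand: ctcactattctCACTCCAtccgcgcagcc
No matches overlapped each other before the starts of the 8 genes. These are matches of letters in a short window, and binding was not measured.

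The first pair of enzymes makes lanosterol. Sqle, squalene monooxygenase, adds oxygen to squalene and is a known point of control in the pathway (ENSMUSG00000022351, GRCm38 chromosome 15, 59315077 to 59331192, plus strand). It was at 19.9, 21.7 and 21.2 FPKM in the extract libraries, against 7.81, 8.11 and 5.49 FPKM in the control libraries. The groups lay well apart, with the lowest extract library 11.8 FPKM above the highest control library. The log2 fold change of Sqle was 1.61 ± 0.13 (SE, adjusted p of 0.000106 by edgeR), a level 3.06 times that of control. Lss, lanosterol synthase, closes the rings (ENSMUSG00000033105, chromosome 10, 76531588 to 76557138, plus strand). It was at 9.01, 9.44 and 9.71 FPKM with the extract, against 4.66, 4.08 and 3.54 FPKM in control. Its libraries did not overlap between the groups, and its log2 fold change was 1.26 ± 0.09 (SE, adjusted p of 7.34e-05 by edgeR). In both groups Lss had the lowest mean level of the 9 genes. An antisense gene, 4930483K19Rik, overlaps Lss over 11268 bases and averaged 8.67 estimated counts with the extract and 5.33 in control.

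Removal of methyl groups follows. Cyp51, the lanosterol demethylase and a cytochrome P450, takes off the first of them (ENSMUSG00000001467, chromosome 5, 4081145 to 4104746, minus strand). Its 3 extract libraries had 48.8, 49.5 and 51.4 FPKM, against 16.6, 15.1 and 10.7 FPKM in control. This was the largest rise of the 9 genes, with a log2 fold change of 1.88 ± 0.14 (SE, adjusted p of 7.45e-05 by edgeR) and a level 3.68 times that of control. Msmo1, at 1.87 ± 0.12 (SE), lay within the SE of this value, so the order of the 2 genes is not settled. Akap9, on the other strand, overlaps Cyp51 over 166 bases, and whether the counting used strand is not stated. Akap9 itself had a log2 fold change of 0.28 (edgeR adjusted p = 0.0247).

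The remaining methyl groups are removed by a complex of 3 enzymes. Msmo1, methylsterol monooxygenase, oxidises them (ENSMUSG00000031604, chromosome 8, 64718139 to 64733792, minus strand). It was at 34.7, 34.9 and 34.8 FPKM with the extract, the closest agreement of any of the 9 genes, and at 11.7, 10.2 and 7.89 FPKM in control. The log2 fold change of Msmo1 was 1.87 ± 0.12 (SE, adjusted p of 4.42e-05 by edgeR). Nsdhl, a dehydrogenase, takes off the oxidised carbon (ENSMUSG00000031349, chromosome X, 72918557 to 72958514, plus strand). It was at 35.2, 34.3 and 36.6 FPKM with the extract, against 15.5, 13.8 and 9.48 FPKM in control. All control libraries were below the extract libraries, but they spread widely, with a coefficient of variation of 23.9%, against 3.26% with the extract. The log2 fold change of Nsdhl was 1.52 ± 0.15 (SE, adjusted p of 0.000318 by edgeR). Hsd17b7, a ketoreductase that also acts on steroid hormones, restores the hydroxyl group (ENSMUSG00000026675, chromosome 1, 169949535 to 169969241, minus strand). It was at 11.6, 12.9 and 12.6 FPKM with the extract, against 4.67, 4.35 and 4.35 FPKM in control. Both groups were tight, and its log2 fold change of 1.54 ± 0.06 had the smallest adjusted p of the 9 genes (SE, adjusted p of 5.19e-06 by edgeR). Erg28, which holds these enzymes together in yeast, was at 15.8, 16.3 and 15.9 FPKM with the extract and at 11.4, 10.4 and 9.54 FPKM in control. It rose by 0.68 ± 0.07 on the log2 scale (SE, adjusted p of 0.000254 by edgeR).

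The last enzymes set the double bonds. Ebp, the sterol isomerase that also binds emopamil, moves a double bond within the ring (ENSMUSG00000031168, chromosome X, 8185329 to 8193512, minus strand). It was at 60.9, 57.5 and 58.0 FPKM in the extract libraries, against 55.5, 56.0 and 50.2 FPKM in the control libraries. The lowest extract library was 1.51 FPKM above the highest control library. Ebp had a log2 fold change of 0.19 ± 0.05 (SE, adjusted p of 0.0280 by edgeR), and it was the 1 gene of the 9 that lost its call under any of the 16 alternatives run. Its adjusted p was 0.0812, 0.0506 and 0.0772 without extract 1, 2 and 3, 0.0556 without control 2 and 0.169 with limma on log2(FPKM + 0.5). Sc5d, the desaturase that adds a double bond, is next (ENSMUSG00000032018, chromosome 9, 42251595 to 42264256, minus strand). It was at 44.0, 44.1 and 46.4 FPKM with the extract, against 20.6, 19.7 and 16.3 FPKM in control. The groups of Sc5d did not overlap, and its log2 fold change was 1.31 ± 0.08 (SE, adjusted p of 3.66e-05 by edgeR). Dhcr7, the reductase whose substrate is also the precursor of vitamin D, acts at the end (ENSMUSG00000058454, chromosome 7, 143823145 to 143848410, plus strand). It was at 18.1, 18.7 and 18.4 FPKM with the extract, against 10.1, 9.45 and 6.97 FPKM in control. Its rise of 1.12 ± 0.12 on the log2 scale was the second smallest of the 9 (SE, adjusted p of 0.000399 by edgeR).

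The order of the mean levels differed between the groups in the places of Cyp51 and Sc5d and of Sqle and Dhcr7, pairs whose control libraries overlapped. With the extract it was Ebp, Cyp51, Sc5d, Nsdhl, Msmo1, Sqle, Dhcr7, Hsd17b7 and Lss, from 58.8 ± 1.82 to 9.38 ± 0.350 FPKM (SD, n = 3), and of neighbours in this order only the libraries of Nsdhl and Msmo1 overlapped. In control it was Ebp, Sc5d, Cyp51, Nsdhl, Msmo1, Dhcr7, Sqle, Hsd17b7 and Lss, from 53.9 ± 3.19 to 4.09 ± 0.558 FPKM (SD, n = 3), and there only Ebp stood clear of Sc5d and Sqle clear of Hsd17b7. The highest mean level was 6.26 times the lowest with the extract and 13.2 times the lowest in control.

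Because FPKM is scaled for length, the levels can be set against each other within a library. Ebp made up 21.6%, 20.3% and 20.1% of the FPKM summed over the 9 genes in the extract libraries, against 37.7%, 39.8% and 43.7% in the control libraries. Cyp51 made up 17.3%, 17.5% and 17.8% with the extract, against 11.3%, 10.7% and 9.34% in control. For Msmo1 the share was 12.2% ± 0.156 with the extract and 7.36% ± 0.549 in control (SD, n = 3 each). Shares of 8 of the 9 genes did not overlap between the groups, lower with the extract for Ebp and higher for the other 7 of them. Dhcr7 was the exception, at 6.46% ± 0.126 with the extract and 6.55% ± 0.434 in control (SD, n = 3 each). The exact permutation test, two-sided, gave p = 0.1 for each of the 8 genes (0.1125 after adjustment over the 9 genes) and p = 0.8 for Dhcr7. The value of 0.1 is the smallest that 3 libraries against 3 allow. The 9 shares of a library sum to the whole, so the change in the share of Ebp (-19.7 percentage points) forces rises among the others. The 8 p-values are therefore not separate results. The higher shares of the 7 genes are of a sum that holds Ebp, and shares without Ebp were not computed. Among the 7, Lss and Sc5d had log2 fold changes of 1.26 and 1.31, below the median of 1.52 of the 9 genes. Their higher shares therefore do not mean that they rose more than the other genes. As a ratio, Ebp was at 1.25, 1.16 and 1.13 times Cyp51 in the extract libraries and at 3.34, 3.71 and 4.68 times Cyp51 in the control libraries (exact permutation p = 0.1, the smallest possible). The shares of Lss and Sc5d were higher by 0.247 and 1.68 percentage points with the extract on FPKM, but lower by this measure on estimated counts, where differences of -0.345 and -0.120 were found.

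**Figure D2:**
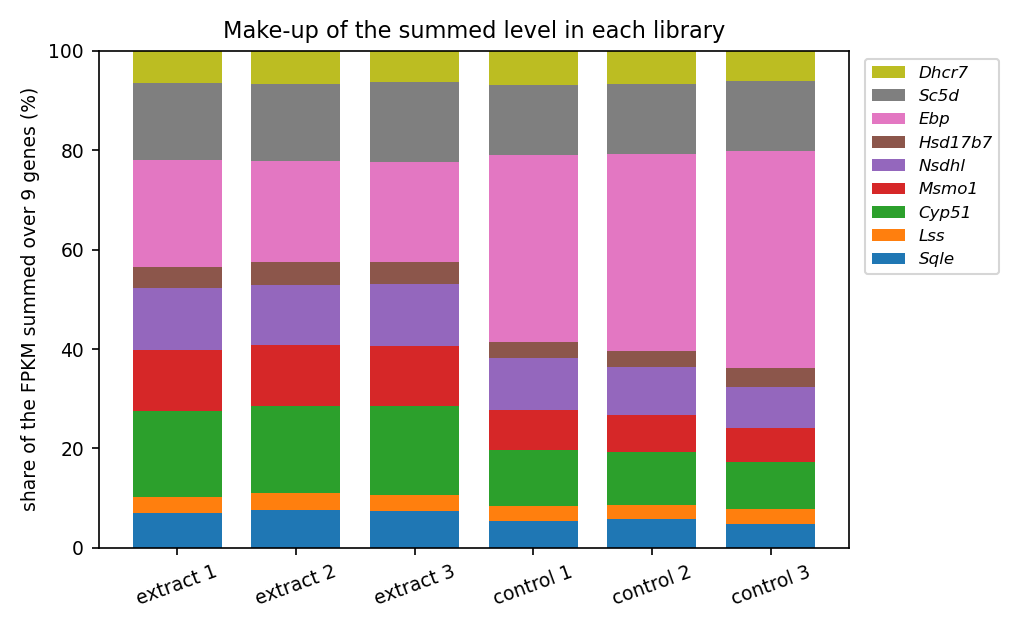
Share of each gene in the FPKM summed over the 9 genes (percent, stacked to the whole), for the 3 extract libraries on the left and the 3 control libraries on the right. The band of Ebp spans 20.1% to 21.6% with the extract and 37.7% to 43.7% in control.

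Among the control libraries the genes shared their spread. Control 3 was the lowest control library for 9 of the 9 genes, and it was the lowest for 39.1% of 4881 tested genes with a mean of at least 5 FPKM. Control 1 was above the group mean for all 9, and the median deviation of the 9 genes from their group mean was 0.20 on the log2 scale in control 1, 0.07 in control 2 and -0.32 in control 3. Among the extract libraries these medians lay between -0.03 and 0.03, and extract 1 was the lowest of them for 7 of the 9 genes and for 31.5% of the 4881 genes. The coefficient of variation was larger in control for 8 of the 9 genes, all but Hsd17b7, and for 61.7% of the 4881 genes. Control 3 is also the control library in which muscle transcripts were near 0 and pancreas transcripts were near the level of the extract libraries. Without control 3 all 9 genes were still called higher, as were 13.5% of all genes, with log2 fold changes of 1.47 for Sqle, 1.72 for Cyp51 and 0.15 for Ebp.

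**Figure D3:**
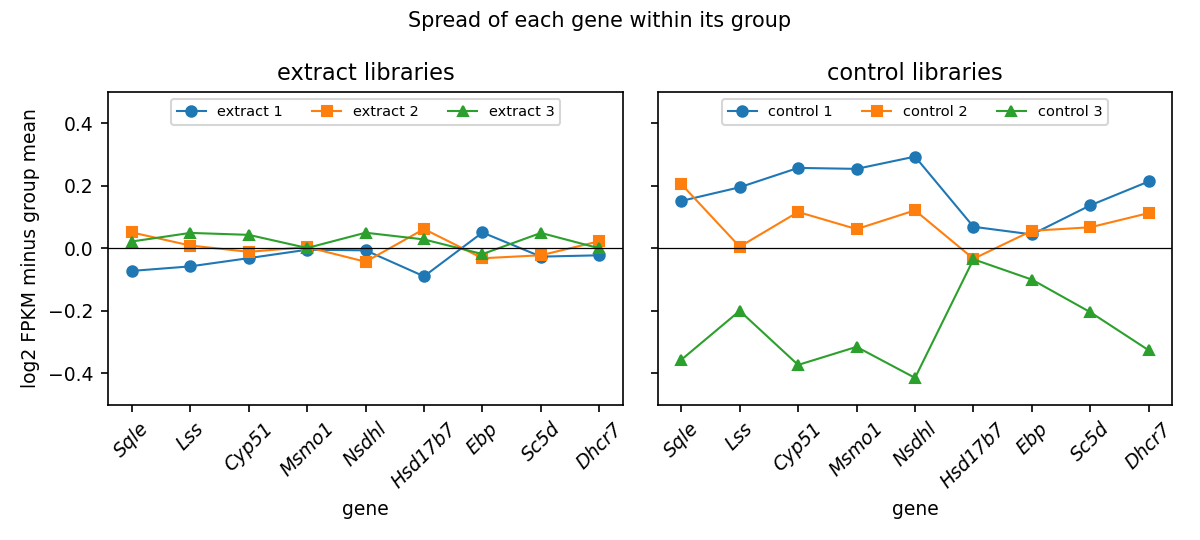
Deviation of each library from its group mean (log2 FPKM) for the 9 genes, with the extract libraries in the left panel and the control libraries in the right panel. Control 3 lies below the line for every gene, at a median of -0.32, and the extract libraries stay close to it.

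Other genes of these late steps were looked at as a list of 3, of which 2 rose, Erg28 and Tm7sf2, and 1 was not called, Lbr, with a median log2 fold change of 0.64. Tm7sf2 and Lbr both reduce the bond left behind by Cyp51. Tm7sf2 was at 19.9, 20.1 and 19.5 FPKM with the extract and 14.5, 15.7 and 9.74 FPKM in control, a log2 fold change of 0.64 ± 0.15 (SE, adjusted p of 0.0141 by edgeR, and 0.0542 without extract 2). Lbr is also a protein of the inner nuclear membrane. It was at 1.92, 2.02 and 2.01 FPKM with the extract and 1.99, 1.96 and 2.18 FPKM in control (edgeR adjusted p = 0.904).

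Upstream of squalene, 8 of 8 genes looked at rose, with a median log2 fold change of 1.31. Idi1, the isomerase of the isoprene units, was at 57.8, 56.6 and 60.6 FPKM with the extract and 17.6, 16.1 and 11.7 FPKM in control. Its rise of 2.01 ± 0.13 on the log2 scale was the largest of the 8 (SE, adjusted p of 4.54e-05 by edgeR). Hmgcs1, which makes the precursor of mevalonate, rose by 1.75 and Fdft1, which makes squalene, by 1.18 on the log2 scale. The smallest rise of these 8 was that of Acat2, 0.59, above that of Ebp. The difference between the lists was not tested.

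**Figure D4:**
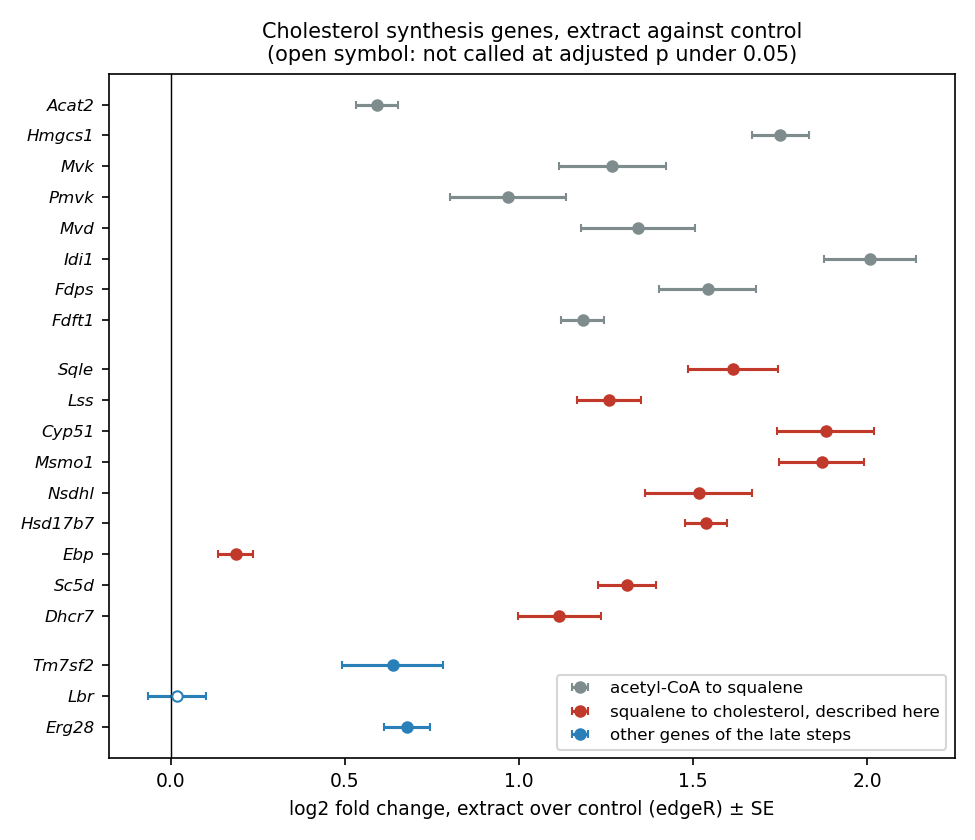
Log2 fold change of extract over control with its SE (edgeR, n = 3 libraries a group) for 8 genes from acetyl-CoA to squalene, the 9 genes from squalene to cholesterol and 3 other genes of the late steps. Filled symbols passed an adjusted p of 0.05, Lbr is open, and Ebp lies at 0.19 while the other genes of its group lie between 1.12 and 1.88.

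Sqle, Cyp51, Msmo1 and Sc5d need electrons handed on by partner proteins. Of 5 such genes 4 rose and 1 was not called, with a median log2 fold change of 0.38, where 14.2% of all genes tested were called higher. With limma on log2(FPKM + 0.5), 3 of the 5 were called higher, as were 13.6% of all genes. With a library left out, 3 to 4 were. Cyb5b, a cytochrome b5 of the outer mitochondrial membrane, rose 1.61-fold and Por, the reductase that serves Sqle and Cyp51, rose 1.42-fold (edgeR adjusted p = 2.01e-05 and 0.000134). Pgrmc1, a heme protein that binds Cyp51, rose by 0.38 on the log2 scale. Cyb5a was at 176, 175 and 168 FPKM with the extract and at 183, 188 and 184 FPKM in control (edgeR adjusted p = 0.458).

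Of 10 genes for sensing sterols and for breakdown of the enzymes, 6 rose and 1 fell. Of all genes tested, 14.2% were called higher and 12.8% lower. With limma on log2(FPKM + 0.5), 4 of the 10 were called higher, as were 13.6% of all genes. With a library left out, 4 to 6 were. Insig1, which holds SREBP in the endoplasmic reticulum and is itself a target of SREBP2, was at 54.1, 60.4 and 56.2 FPKM with the extract and 31.8, 29.1 and 26.0 FPKM in control (log2 fold change 1.04 ± 0.07, SE, adjusted p of 6.58e-05 by edgeR). Its relative Insig2 fell to 11.6, 11.7 and 11.03 FPKM with the extract, against 22.2, 22.3 and 25.7 FPKM in control (log2 fold change -0.97 ± 0.07, SE, adjusted p of 6.67e-05 by edgeR). Marchf6, the ubiquitin ligase that marks the Sqle protein for breakdown, rose 1.38-fold (edgeR adjusted p = 0.000179). Srebf2, the gene of SREBP2, was at 10.7, 10.8 and 11.2 FPKM with the extract and at 7.73, 7.09 and 6.09 FPKM in control. It had a log2 fold change of 0.70 ± 0.08 (SE, adjusted p of 0.000631 by edgeR).

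Of 7 genes looked at for uptake and transfer of sterols 4 rose and 1 fell, Scp2, a carrier protein (0 fell without extract 1 or extract 3). Stard4, a sterol carrier, rose 2.14-fold, Tmem97, which binds the sterol transporter Npc1, rose 1.81-fold and Sec14l2, a lipid-binding protein known to stimulate Sqle, rose 1.24-fold. Of 12 genes tested for disposal of sterols 6 rose and 1 fell, Soat1, which stores cholesterol as esters. Without extract 1, extract 2 or control 1, 0 were called lower. With limma on log2(FPKM + 0.5), 5 of the disposal genes were called higher, as were 13.6% of all genes. With a library left out, 5 to 7 were. By edgeR, 14.2% of all genes tested were called higher and 12.8% lower. Soat1 was low in all libraries, at 0.690, 0.695 and 0.822 FPKM with the extract and 1.28, 0.995 and 1.05 FPKM in control. Its relative Soat2 was among the genes that rose, but only 1.13-fold (edgeR adjusted p = 0.0366). Soat2 was at 16.1, 16.1 and 16.6 FPKM with the extract and 14.7, 15.3 and 15.2 FPKM in control. Cyp7a1, which starts the conversion of cholesterol to bile acids, was at 104, 107 and 101 FPKM with the extract and 12.5, 10.5 and 8.45 FPKM in control. Cyp39a1, which hydroxylates an oxysterol, rose 2.38-fold, and Abca1, which exports cholesterol, rose 1.61-fold.

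The genes with the profile most like the mean of the 9 were sought among 4412 other tested genes with a mean of at least 5 FPKM, leaving out predicted gene models and pseudogenes. The measure was the root mean square distance over the 6 libraries between centred log2(FPKM + 0.5) values, and the 6 nearest genes are given. Abca3, a lipid transporter, was nearest, at a distance of 0.0352, and was at 20.4, 22.6 and 21.6 FPKM with the extract and 9.83, 9.02 and 7.22 FPKM in control. Next were Gbp10, an interferon-inducible GTPase, at 0.0661, Fasn, fatty acid synthase, at 0.0687, Aacs, which activates acetoacetate for lipid synthesis, at 0.0730, Mvd of the mevalonate pathway at 0.0907 and Zbp1, a sensor of nucleic acids, at 0.0968. The members themselves lay between 0.0331 for Sc5d and 0.578 for Ebp, so that Abca3 was nearer to the mean of the 9 than 8 of its own members. These distances are a description over 6 libraries that the genes share, and most of each profile is the step between the groups.

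In the deposited annotation all 9 genes carry the term for the membrane of the endoplasmic reticulum, and 2 of them, Lss and Nsdhl, also that for lipid droplets.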

How the data were processed

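Polyadenylated RNA of 6 mouse liver libraries was sequenced. The deposited table gives, for each library, an estimated count and an FPKM value per gene, per the file headers. Per the submitters' processing notes, StringTie 1.3.4d, HISAT2 2.0.4, cutadapt 1.9 and edgeR were used. No label or header names a genome build, but 99.7% of the gene IDs were in GENCODE M21 (GRCm38) and the spans of all 9 genes were the same there. The deposited counts are whole numbers whose low values peak at 4, so they were taken as estimated counts and not as reads seen. In the table, 6 value columns matched no sample and were not used.

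Counts were fitted over all genes with edgeR 4.0.16 in R 4.3.3 (filterByExpr, TMM factors, quasi-likelihood test, no block, Benjamini-Hochberg adjustment, threshold 0.05). The 2 groups of 3 libraries come from the labels. Levels are the deposited FPKM values, and fold changes come from edgeR, with an SE derived from the F statistic. Alternatives were DESeq2 1.42.0, limma 3.58.1 on log2(FPKM + a pseudocount), other scalings and filters, a replicate block and each library left out in turn. The precision of a value is limited by 3 libraries a group rather than by depth, at 1409 or more estimated counts a library for each of the 9 genes.

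Named were the 9 genes, up to 3 genes of smallest p from each other list, and the 6 genes of most similar profile. Cyb5a, Acat2, Srebf2, Scp2, Soat1, Soat2 and Camp were named after their values were seen. The 9 genes and the lists were chosen with earlier results of these data known, and some genes of the lists are not reported here. Promoter windows come from RefSeq on GRCm38.p6.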

Additional observations from a re-analysis of the deposited data

How the results depend on the processing

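Of the 9 genes, 8 were called higher under each of 16 alternatives, and 8 or 9 of the 9 were called higher under each, with none called lower (5.63% to 19.6% of all genes were called higher over these settings). Ebp kept its direction but lost its call in 9 of the 16: its log2 fold change was 0.19 with the replicate block (edgeR adjusted p = 0.0554), 0.13 with limma on log2(FPKM + 0.5), with or without a filter on low values, 0.13 with a pseudocount of 0.1 and 0.12 with a pseudocount of 1. It ranged from 0.15 to 0.22 when a library was left out. Deviations of same-numbered libraries from their group means had correlations of -0.117, -0.0282 and -0.0895, so no pairing by number was seen. Deviations from a mean of 3 libraries are tied to each other, so these values cannot tell whether the libraries were paired. With the block 2044 genes were called higher and 1702 lower, against 2561 and 2309 without it. No library correlated best with its own number. Limma without a filter called 1661 genes higher, and leaving out a library gave 1776 to 2553 higher and 1442 to 2153 lower (1480 without extract 1, 1461 without extract 2 and 1442 without control 2). Of the uptake genes, 0 were called lower with the block and with TMM scaling of FPKM, and 0 to 1 with a library left out. Of the disposal genes, 2 were called lower with limma on log2(FPKM + 1), and 0 to 1 with a library left out. Extract minus control shares turned to -0.345 percentage points for Lss and -0.120 for Sc5d on estimated counts, which are not scaled for length, and that of Dhcr7 ranged from -0.343 to 0.0670 with a library left out, positive without control 1. Other causes of these differences were not tested. Tm7sf2 lost its call in 3 alternatives, with adjusted p values of 0.0520 (limma on log2(FPKM + 0.1)), 0.101 (limma without a filter) and 0.0542 (without extract 2), so that 1 of the 3 other late genes was called higher there, and 1 to 2 were with a library left out.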
